A study of Mus musculus with 5 samples.

Results

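The genes described here are 10 germline genes, taken by their symbols from the deposited expression tables: Dazl, Ddx4, Mael, Sycp1, Sycp3, Asz1, Slc25a31, Tex101, Taf7l, and Tex19.1. All 10 had a row in both tables, out of 24421 genes listed. RNA-seq was performed on 5 mouse libraries, 1 per group and with no replicates. The groups were mouse embryonic fibroblasts (MEFs), induced pluripotent stem cells (iPSCs), V6.5 mouse embryonic stem cells (mESCs) left untreated, V6.5 cells with a non-targeting control shRNA (NTC), and V6.5 cells with an shRNA against Gldc (shGldc). Gldc encodes the first enzyme of the glycine cleavage system, and the study asked what this system does in pluripotent cells. The paper's methods describe pluripotent cells grown without feeder cells on gelatin, in serum replacement medium with a little serum and leukaemia inhibitory factor. They also describe culture on feeder cells with serum in place of the replacement, and do not say which culture gave the RNA-seq libraries. MEFs came from mid-gestation CF-1 mouse embryos and grew in serum medium. Cell type, medium, and any difference in strain cannot be told apart in comparisons with MEFs. The hairpin behind the shGldc library is not identified, and the origin of the iPSC line is not given in the labels. The targeted transcript itself stood at an FPKM of 59.7 in untreated V6.5 cells, 70.8 in iPSCs, 74.7 in NTC, and 2.07 in shGldc.

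Germline genes of this kind are needed for making eggs and sperm and are kept silent in somatic cells. Their CpG-rich promoters gain DNA methylation when the embryo implants. In mESCs, many are also held down by PRC1.6, a Polycomb complex whose E2F6 and MGA/MAX subunits bind DNA, and by H3K9 methyltransferases. Primordial germ cells later erase the methylation, and the genes then become active. No methylation, chromatin mark, or protein was measured in these libraries, so the values below are transcript levels alone.

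Promoters are shown first, since the DNA letters that E2F6 (TCCCGC) and MGA/MAX (the E-box CACGTG) are known to bind could be counted in them. Promoter sequences were taken from RefSeq (GRCm38.p6, the build also called mm10), as 250 bases before to 50 bases after each annotated start. All 10 genes matched 1 promoter each. The 300 bases held a median of 20 CpG dinucleotides in the 10 genes (range 15 to 38), against 16.5 in 72 promoters of other germline genes and 13 in all 20788 promoters of genes in the tables. The ratio of observed to expected CpG was at least 0.6 in 9 of the 10 promoters and in 48.0% of all promoters. Tex19.1, at 0.575, lay just under that line, and Taf7l had the highest ratio, 1.03, with the lowest GC content, 47.0%.

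TCCCGC on either strand was found in 6 of the 10 promoters, and in 25.9% of all promoters. CACGTG, which reads the same on both strands, was also found in 6 of the 10, and in 8.05% of all promoters. The motifs do not overlap each other. Both were present in 5 promoters (Ddx4, Mael, Sycp1, Sycp3, and Slc25a31), against 2.68% of all promoters and 8.33% of the promoters of other germline genes. Taf7l held the E-box alone, Tex19.1 held TCCCGC alone, and Dazl, Asz1, and Tex101 held neither. A match says only that the letters are present, and their absence from this window says nothing about the factor. With the window cut to the 150 bases before the start, 4 promoters held TCCCGC and 5 held CACGTG.

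**Figure D1:**
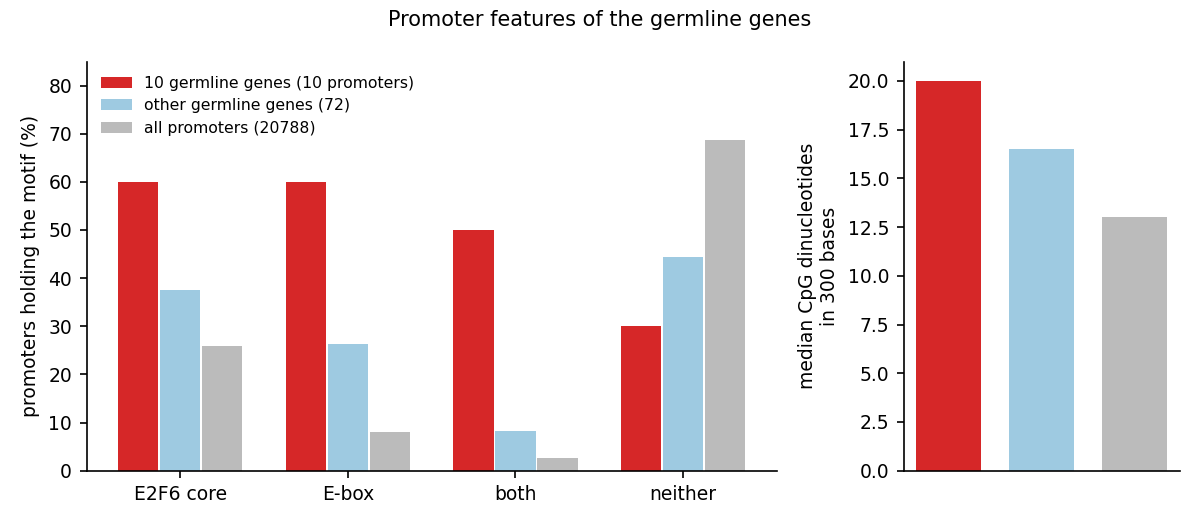
Left, bars give the share of promoters (%) that hold the E2F6 core TCCCGC, the E-box CACGTG, both, or neither, for the 10 germline genes, 72 promoters of other germline genes, and 20788 promoters of all genes in the tables. Right, bars give the median number of CpG dinucleotides in 300 bases for the same sets in the same colours. Both motifs together were in 5 of the 10 promoters of these genes and in 2.68% of all promoters.

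The 250 bases before the start are printed 5′ to 3′ on the gene's strand for 4 genes that show the range of motif content, with TCCCGC (or its complement GCGGGA) and CACGTG in capitals. Mael (chr1:166238745-166238994, minus strand) carries both motifs, the E-box 223 and the E2F6 core 143 bases before the start, and a second E2F6 core, read as GCGGGA, falls within the 50 bases after it. Sycp3 (chr10:88459337-88459586, plus strand) carries 2 E-boxes, 64 and 43 bases before the start. Taf7l (chrX:134476491-134476740, minus strand) has a single E-box 49 bases before the start, and Dazl (chr17:50293621-50293870, minus strand) has neither motif.
Mael: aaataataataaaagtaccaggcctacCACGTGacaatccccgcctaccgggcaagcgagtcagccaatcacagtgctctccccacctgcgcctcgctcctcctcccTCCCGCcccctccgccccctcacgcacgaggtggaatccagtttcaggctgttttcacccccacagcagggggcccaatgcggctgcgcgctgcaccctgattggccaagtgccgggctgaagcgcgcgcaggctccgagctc
Sycp3: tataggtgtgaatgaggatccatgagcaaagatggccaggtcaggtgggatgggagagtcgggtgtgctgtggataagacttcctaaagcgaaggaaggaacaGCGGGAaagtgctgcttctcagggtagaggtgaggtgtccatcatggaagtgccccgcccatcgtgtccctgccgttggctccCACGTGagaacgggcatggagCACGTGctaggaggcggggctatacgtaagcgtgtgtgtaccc
Taf7l: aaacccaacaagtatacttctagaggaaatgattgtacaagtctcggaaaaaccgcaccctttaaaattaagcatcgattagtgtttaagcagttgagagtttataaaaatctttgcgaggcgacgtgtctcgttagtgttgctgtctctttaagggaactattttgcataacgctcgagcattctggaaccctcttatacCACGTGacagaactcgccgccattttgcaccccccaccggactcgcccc
Dazl: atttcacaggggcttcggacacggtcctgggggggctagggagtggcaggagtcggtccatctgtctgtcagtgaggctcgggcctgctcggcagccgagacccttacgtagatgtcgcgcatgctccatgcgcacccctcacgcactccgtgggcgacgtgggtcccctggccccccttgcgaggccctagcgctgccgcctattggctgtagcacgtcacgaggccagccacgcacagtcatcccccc

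Levels were deposited as FPKM (the fragments of a gene divided by its transcript length in kilobases and by the library's mapped fragments in units of 1000000), which can be compared between genes because length is divided out. From the steps between low FPKM values, 1 fragment could be read off for each library, which gave a depth of about 24700000 fragments in MEFs, 24600000 in untreated V6.5 cells, and 22200000 in iPSCs. For NTC and shGldc, the depth was uncertain by a factor of 2, and the lower reading, about 14400000 fragments in each, was used. For MEFs, untreated V6.5 cells, and iPSCs, the range of steps searched was too narrow to check for a factor of 2. Counting intervals below (95%) rest on these estimates and cover counting error only, not the spread between cultures, which was not measured. Differences were taken as log2 ratios of FPKM + 0.1, a scale that shrinks differences at low levels. A gene was called different when its ratio reached 2-fold and either library had an FPKM of 1 or more. NTC and shGldc were tabulated together and the other 3 libraries in a table of their own, so ratios of NTC or shGldc over V6.5 or iPSCs also contain any difference between the tables.

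The cell labels were checked against their markers. All 10 pluripotency markers had an FPKM of at least 1 in each of the 4 stem cell libraries, with summed FPKM of 3808 to 7167, against 25.5 in MEFs. In shGldc, 9 of the 10 were below NTC (median log2 ratio -0.64), where 5649 of the 11969 genes tested were. Fgf4 alone was called lower, at -1.73, against 7.68% of the genes tested. All 10 were below untreated V6.5 cells in shGldc, 4 of them called lower, against 13.9% of the genes tested. Of 10 fibroblast markers, all 10 passed that level in MEFs (summed FPKM 7594). Their sum was 58.1 in untreated V6.5 cells, 13.9 in iPSCs, 12.2 in NTC, and 5.36 in shGldc. In untreated V6.5 cells this was 0.766% of the MEF sum, and single markers there stood at 0.559% (Col1a1) to 4.25% (Dcn) of their MEF level. Markers of haploid spermatids were listed at 0 for 5 to 8 of 10 genes in every library, and Tssk6 was the single one to reach an FPKM of 1. Of 12 markers of somatic cells of the gonad, 2 to 5 reached an FPKM of 1, with summed FPKM of 7.27 to 14.4.

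In MEFs none of the 10 genes reached an FPKM of 1, a level that 45.7% of all genes reached there. Dazl, Mael, Sycp1, Asz1, and Tex101 were listed at 0, and the highest value was 0.205, for Sycp3. Taf7l at 0.0210 and Tex19.1 at 0.0585 came to about 1.00 and 2.52 fragments, which is under the floor of 3 fragments. Ddx4 at 0.135, Slc25a31 at 0.162, and Sycp3 came to about 10.0, 8.52, and 5.90 fragments. In the stem cell libraries, an FPKM of 1 was reached by 8 of the 10 genes in untreated V6.5 cells, all 10 in iPSCs, 6 in NTC, and 6 in shGldc. The median FPKM of the 10 was 2.35 in untreated V6.5 cells, 12.9 in iPSCs, 1.46 in NTC, and 2.44 in shGldc. In a bulk library, expression in few cells and low expression in all cells cannot be told apart.

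Compared with MEFs, untreated V6.5 cells had 8 of the 10 genes called higher, where 30.3% of the genes tested were. Sycp1 and Asz1 stayed under the filter. In iPSCs all 10 were called higher than in MEFs, against 31.5% of the genes tested. Every one passed the filter through the stem cell library alone, since none reached an FPKM of 1 in MEFs. Ratios over MEFs were shifted upwards in general, with a median log2 ratio over all genes tested of 0.25 for V6.5 cells and 0.31 for iPSCs. For the 10 genes the medians were 3.67 and 6.05.

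**Figure D2:**
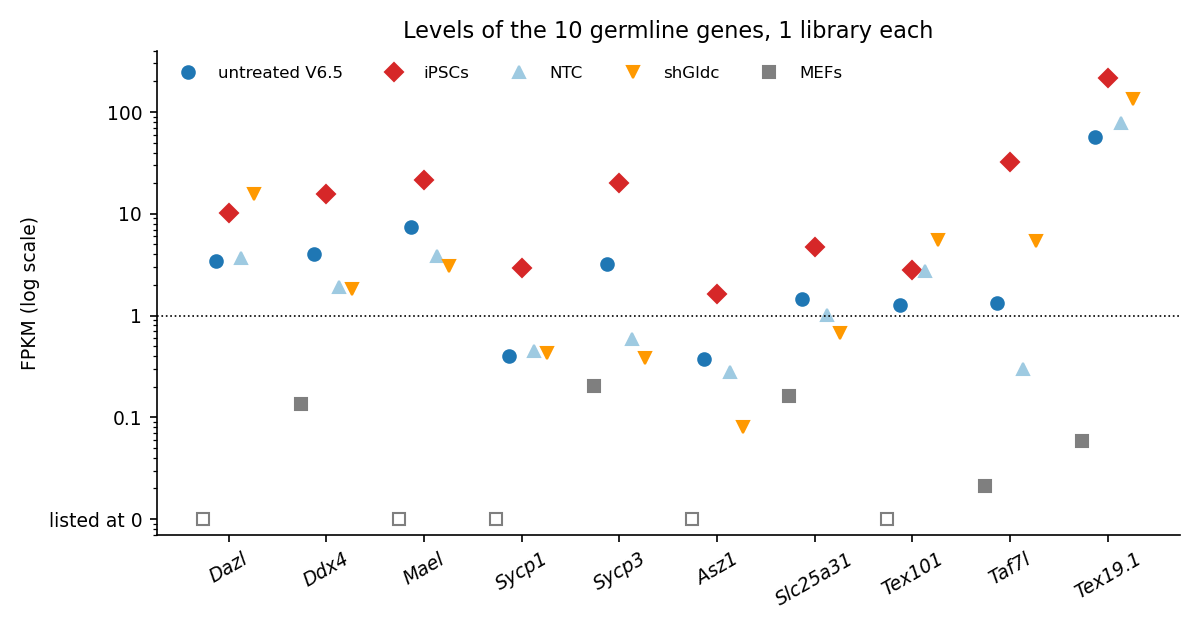
FPKM (log axis) of the 10 germline genes in the 5 libraries, 1 point per library, with genes along the horizontal axis. Open squares stand for values listed at 0, drawn at the foot of the axis, and the dotted line marks an FPKM of 1. MEFs were lowest for every gene, iPSCs were highest for 8 genes, and shGldc was highest for Dazl and Tex101.

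Between the pluripotent lines, the iPSC library was higher for all 10 genes. All 10 were called at least 2-fold higher in iPSCs than in untreated V6.5 cells, where 10.1% of the genes tested were called higher and 7.44% lower. Their log2 ratios ran from 1.06 (Tex101) to 4.50 (Taf7l), with a median of 1.89 against 0.04 over all genes tested. Sycp1 and Asz1 passed the filter through the iPSC library alone, and the other 8 had an FPKM of at least 1 in both. Rescaling the libraries to the same FPKM sum or centring on the median gene left the count at 10, and a pseudocount of 1 left it at 8. Of the 9 fibroblast markers that passed the filter, 6 were called lower in iPSCs than in untreated V6.5 cells, against the same 7.44%, and 3 were within 2-fold, among them Thy1 (5.63 in untreated V6.5 cells and 8.30 in iPSCs). With NTC in place of untreated V6.5 cells, a library whose fibroblast sum was close to that of iPSCs but which comes from the other table, 9 of 10 were called higher, against 16.3% of genes tested called higher and 7.81% lower. The exception was Tex101, at 2.79 in iPSCs and 2.74 in NTC. Of the 10, Sycp1, Sycp3, Asz1, and Taf7l passed that filter through iPSCs alone, with an FPKM of 0.277 to 0.588 in NTC.

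Among the genes of the cytoplasmic RNA machinery of germ cells, Dazl (chr17:50279395-50293636, 11 exons) encodes an RNA-binding protein that promotes translation. Its FPKM was 0 in MEFs, 3.41 in untreated V6.5 cells, 10.2 in iPSCs, 3.66 in NTC, and 15.5 in shGldc. The untreated V6.5 and NTC libraries did not differ beyond counting error (1.07-fold, interval 0.874 to 1.32), and the other stem cell libraries stood above them. The iPSC level was 3.01-fold that of untreated V6.5 cells (2.60 to 3.49), and the shGldc level was 4.23-fold that of NTC (3.55 to 5.07).

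Ddx4 (chr13:112598333-112652475, 22 exons), the mouse homologue of the fly gene vasa, encodes an RNA helicase of the germ granule. Its FPKM was 0.135 in MEFs, 4.03 in untreated V6.5 cells, 15.6 in iPSCs, 1.89 in NTC, and 1.82 in shGldc. iPSCs stood alone at the top, 3.87-fold over untreated V6.5 cells (3.40 to 4.41). NTC and shGldc could not be separated by counting error (0.962-fold, 0.697 to 1.33). NTC was 2.13-fold below untreated V6.5 cells (1.66 to 2.75).

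Mael, Asz1, and Tex19.1 act against transposons, the first 2 in the piRNA pathway. Mael (chr1:166201201-166238747, 12 exons) had an FPKM of 0 in MEFs, 7.39 in untreated V6.5 cells, 21.7 in iPSCs, 3.82 in NTC, and 3.06 in shGldc. It was 2.93-fold higher in iPSCs than in untreated V6.5 cells (2.57 to 3.35), while shGldc over NTC was 0.801-fold (0.582 to 1.10), an interval that includes no difference. Asz1 (chr6:18050964-18109061, 13 exons), whose protein sits on mitochondria of germ cells, was the least expressed of the 10 in iPSCs. Its FPKM was 0 in MEFs, 0.371 in untreated V6.5 cells, 1.61 in iPSCs, 0.277 in NTC, and 0.080 in shGldc. The last 2 values came to about 6.94 and 2.00 fragments, so the ratio of 0.288 had a counting interval of 0.0291 to 1.52 and a difference was not detectable at this depth.

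Tex19.1 (chr11:121146143-121148319, 3 exons), which restrains retrotransposons and is known to be active in mESCs, was the most abundant of the 10 in all 4 stem cell libraries. Its FPKM was 0.0585 in MEFs, 57.2 in untreated V6.5 cells, 215.5 in iPSCs, 77.9 in NTC, and 135.1 in shGldc. The iPSC level was 3.77-fold that of untreated V6.5 cells (3.60 to 3.94). shGldc was 1.73-fold above NTC (1.64 to 1.83), past counting error but under the 2-fold line. A share of 2.67% of its 50-nt stretches occurs in its neighbour Tex19.2.

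Sycp1 and Sycp3 encode parts of the synaptonemal complex, the protein ladder that joins homologous chromosomes in meiosis. Sycp1 (chr3:102818499-102936100, 33 exons), the transverse filament, had an FPKM of 0 in MEFs, 0.399 in untreated V6.5 cells, 2.93 in iPSCs, 0.447 in NTC, and 0.428 in shGldc. Only the iPSC library exceeded an FPKM of 1, at 7.34-fold the untreated V6.5 level (5.10 to 10.9), and the 3 V6.5 libraries had overlapping counting intervals. A share of 5.47% of its 50-nt stretches is found in other annotated genes, mainly the pseudogene Sycp1-ps1. Sycp3 (chr10:88459569-88473236, 9 exons), of the lateral element, had an FPKM of 0.205 in MEFs, 3.24 in untreated V6.5 cells, 19.9 in iPSCs, 0.588 in NTC, and 0.384 in shGldc. It was 6.15-fold higher in iPSCs than in untreated V6.5 cells (4.93 to 7.75) and 5.52-fold lower in NTC than in untreated V6.5 cells (2.86 to 11.9). shGldc and NTC came to about 6.45 and 9.90 fragments and could not be separated. Sycp3 shares exon bases with Chpt1, so reads there cannot be assigned if strand was not used. Chpt1 had an FPKM between 2.14 in NTC and 4.04 in shGldc.

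Of the remaining 3 genes, Slc25a31 (chr3:40708855-40726096, 6 exons) encodes the ADP/ATP carrier of male germ cell mitochondria. Its FPKM was 0.162 in MEFs, 1.45 in untreated V6.5 cells, 4.67 in iPSCs, 1.02 in NTC, and 0.674 in shGldc. The iPSC level was 3.22-fold that of untreated V6.5 cells (2.47 to 4.23), and shGldc over NTC was 0.663-fold (0.361 to 1.19). Tex101 (chr7:24668007-24676675, 7 exons) encodes a surface protein of germ cells. Its FPKM was 0 in MEFs, 1.28 in untreated V6.5 cells, 2.79 in iPSCs, 2.74 in NTC, and 5.53 in shGldc. Unlike most of the 10, it was higher in NTC than in untreated V6.5 cells (2.14-fold, 1.37 to 3.36). shGldc was a further 2.01-fold above NTC (1.41 to 2.91), which with the pseudocount of 0.1 is a log2 ratio of 0.98, just under the line. In iPSCs it was 2.18-fold above untreated V6.5 cells (1.46 to 3.30), just over the line.

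Taf7l (chrX:134460118-134476490, 13 exons), the X-linked relative of the general transcription factor gene Taf7, had the widest range in the stem cell libraries. Its FPKM was 0.0210 in MEFs, 1.31 in untreated V6.5 cells, 32.0 in iPSCs, 0.299 in NTC, and 5.44 in shGldc. The iPSC level was 24.3-fold that of untreated V6.5 cells (18.9 to 31.8). The shGldc level was 18.2-fold that of NTC (9.12 to 42.1), on about 151 and 8.33 fragments. Taf7l was 4.39-fold lower in NTC than in untreated V6.5 cells (2.12 to 10.4). Against untreated V6.5 cells instead of NTC, its log2 ratio in shGldc was 1.97.

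The 10 genes differed among themselves in shGldc. Dazl and Taf7l were called at least 2-fold higher than in NTC, 2 of 7 that passed the filter, where 8.97% of the genes tested were called higher. Taf7l passed the filter through shGldc alone, with an FPKM of 0.299 in NTC. None of the 7 was called lower, against 7.68% of the genes tested, and no test was made because each condition was 1 library. Tex101 and Tex19.1 had log2 ratios of 0.98 and 0.79. Ddx4, Mael, and Slc25a31 had log2 ratios of -0.05, -0.31, and -0.53. Sycp1, Sycp3, and Asz1, at -0.05, -0.51, and -1.07, had an FPKM under 1 in both libraries. The median log2 ratio was 0.79 over the 7 genes that passed and -0.05 over all 10, so its direction depended on the filter, and the median over all genes tested was 0.04. With a pseudocount of 0.01, Tex101 crossed the line and 3 genes were called higher.

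NTC and untreated V6.5 cells were both V6.5 cells without the knockdown, from the separately made tables. Of the 8 genes that passed the filter between them, Ddx4, Sycp3, and Taf7l were called lower in NTC, where 10.3% of the genes tested were, and Tex101 was called higher, where 4.99% were. Mael lay just inside the line with a log2 ratio of -0.94. So for 4 of the 10 genes, the control libraries differed from each other by 2-fold or more. Over all genes tested, the robust SD of this log2 ratio was 0.59. When shGldc was read against untreated V6.5 cells, 4 genes (Dazl, Tex101, Taf7l, and Tex19.1) were called higher, against 9.89% of the genes tested, and 4 (Ddx4, Mael, Sycp3, and Slc25a31) were called lower, against 13.9%. Dazl and Taf7l were thus called higher in shGldc against either control.

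**Figure D3:**
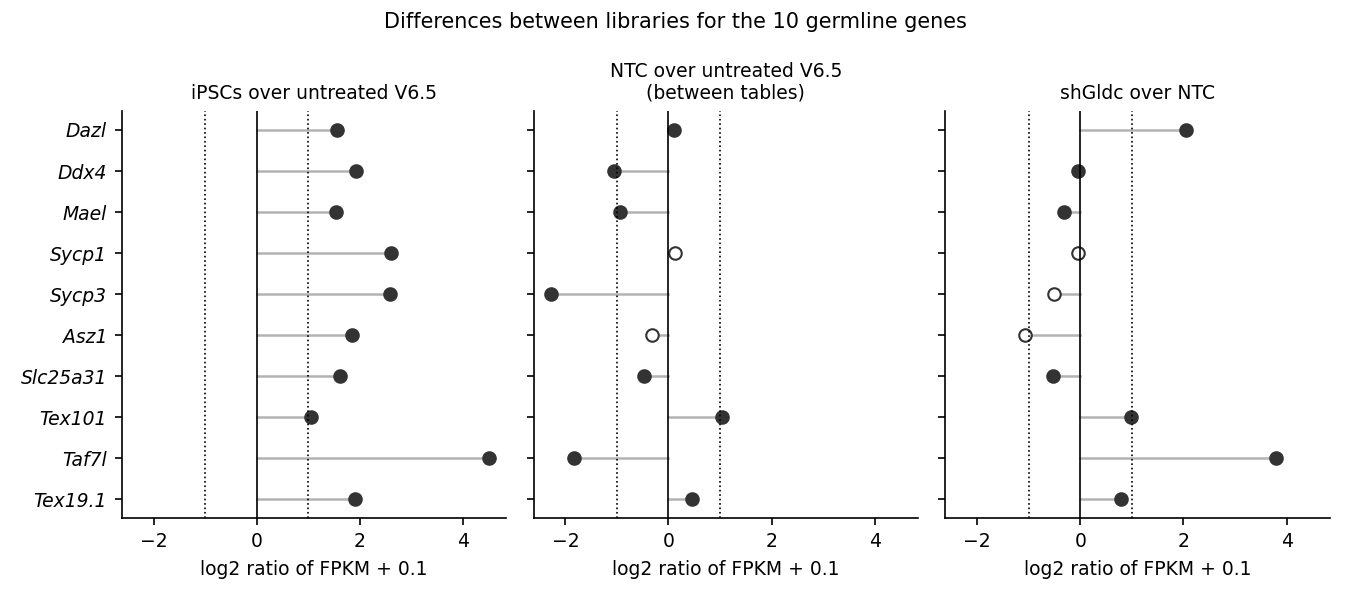
Log2 ratios of FPKM + 0.1 for the 10 germline genes in iPSCs over untreated V6.5 cells, NTC over untreated V6.5 cells, and shGldc over NTC, 1 library per group. Open circles mark genes with an FPKM under 1 in both libraries, and dotted lines mark 2-fold. All 10 ratios lie to the right of the 2-fold line in iPSCs, whereas in shGldc only Dazl and Taf7l do.

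The 5 genes with both motifs in their promoter (Ddx4, Mael, Sycp1, Sycp3, and Slc25a31) had log2 ratios of -0.53 to -0.05 in shGldc over NTC. Only 3 of them passed the filter, since Sycp1 and Sycp3 had an FPKM under 1 in both libraries. The other 5 ranged from -1.07 (Asz1, on few fragments) to 3.80. In iPSCs over untreated V6.5 cells both sets were higher, at 1.54 to 2.60 with both motifs and 1.06 to 4.50 without. This grouping was made after the ratios were seen. In the wider list of germline genes, 6 genes held both motifs, and their shGldc over NTC ratios ran from -2.31 (Stag3) to 1.08 (Nxf2). The 3 of these that passed the filter had ratios below 0, as did 5 of 11 genes with TCCCGC alone, 1 of 4 with CACGTG alone, and 7 of 14 with neither motif.

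The wider list of 72 germline genes (piRNA factors, meiotic proteins, and X-linked families) had 69 genes in the tables. In iPSCs over untreated V6.5 cells, 20 of the 43 that passed the filter were called higher and 2 lower, against 10.1% and 7.44% of the genes tested, with a median log2 ratio of 0.89. Over NTC 20 of 44 were higher and 4 lower, against 16.3% and 7.81%, with a median of 0.83. Of these genes, 11 of the 43 and 13 of the 44 passed the filter through iPSCs alone, so a gene high there entered the count by that level. For shGldc against NTC, 8 of 35 were called higher and 4 lower, against 8.97% and 7.68%, with a median of 0.04, the same as over all genes tested, and 4 of the 35 passed through shGldc alone. Read against untreated V6.5 cells, 11 of 36 were called higher and 10 lower in shGldc, against 9.89% and 13.9%. The highest ratios were those of Rhox9, Stra8, and Rhox6, which had an FPKM of 0.877, 22.6, and 3.42 in NTC and 11.1, 224.1, and 17.8 in shGldc. Stra8, which is induced by retinoic acid and needed to start meiosis, had a log2 ratio of 3.30, and the X-linked homeobox genes Rhox9 and Rhox6 of 3.51 and 2.34. Against untreated V6.5 cells, where Rhox9 and Rhox6 had an FPKM of 11.7 each, their ratios in shGldc were -0.09 and 0.60, so both calls ended, while Stra8 was called higher at 2.09. For Rhox6, 16.5% of the 50-nt stretches recur elsewhere, mainly in Rhox9. At the other end, Magea4 had a log2 ratio of -3.50, Stag3, a meiotic cohesin subunit, of -2.31, and Naa11 of -1.40. Magea4 had an FPKM of 1.87 in NTC and was listed at 0 in untreated V6.5 cells and iPSCs, and its ratio in shGldc over untreated V6.5 cells was 0.79. All 6 of these named genes were at an FPKM under 0.1 in MEFs.

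**Figure D4:**
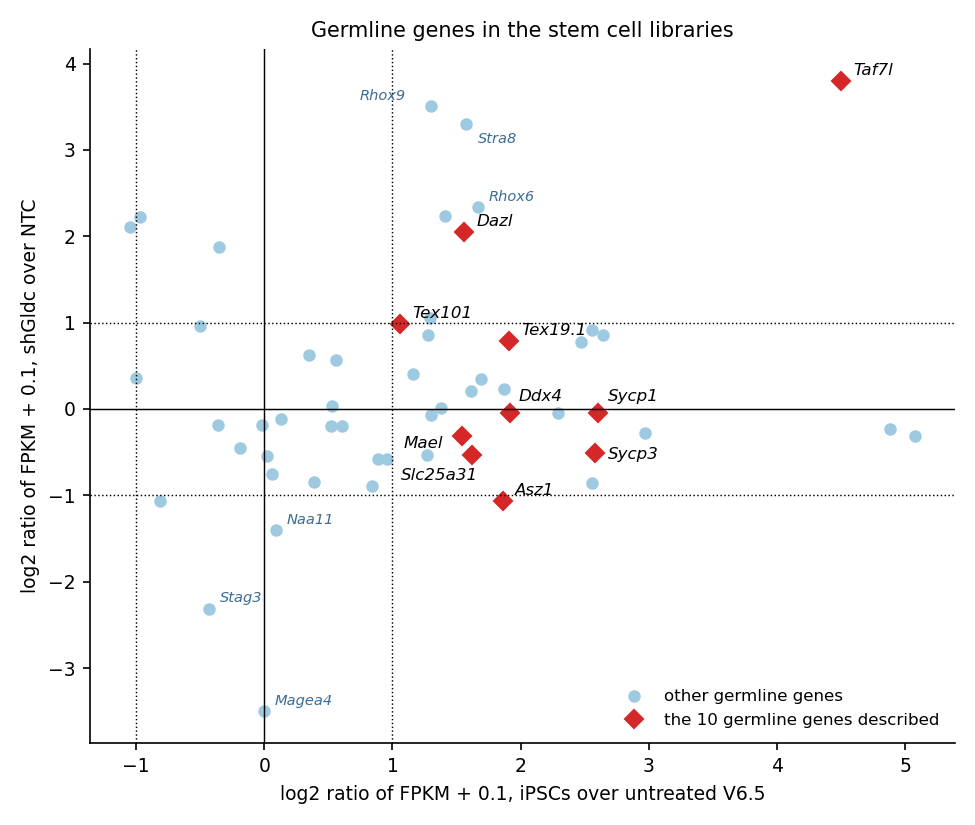
Each point is a gene, placed by its log2 ratio of FPKM + 0.1 in iPSCs over untreated V6.5 cells (horizontal) and in shGldc over NTC (vertical). Diamonds are the 10 germline genes and circles are 45 other germline genes that reached an FPKM of 1 in a stem cell library, with dotted lines at 2-fold. The diamonds all lie right of the 2-fold line, with Taf7l at 4.50 and 3.80 and Asz1 at 1.86 and -1.07.

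Genes of the machinery known to silence these promoters were read beside them. Of 6 DNA methylation writers, 1 was called higher and 1 lower in iPSCs than in untreated V6.5 cells, against 10.1% and 7.44% of the genes tested. Dnmt3l, a cofactor of the de novo methyltransferases, had an FPKM of 57.1 in untreated V6.5 cells and 210.1 in iPSCs (log2 ratio 1.88). Dnmt3a, a de novo methyltransferase, had 23.2 and 5.40 (log2 ratio -2.08). With NTC in place of untreated V6.5 cells, Dnmt3l at 0.64 was no longer called, Dnmt3a at -1.17 was, and Dnmt3b, at 0.40 over untreated V6.5 cells, was called lower (32.4 in iPSCs and 65.0 in NTC), against 7.81% of the genes tested. Dnmt3l and Dnmt3a each share exon bases with a neighbouring gene. In shGldc over NTC none of the 6 was called, and all 6 had ratios below 0, from -0.63 (Hells) to -0.25 (Dnmt3l). That shared direction depended on the control, since over untreated V6.5 cells 3 of the 6 were above 0 and 3 below, with Dnmt3b called higher (1.13) and Dnmt3a lower (-1.35). Dnmt1, the maintenance methyltransferase, had 91.7 in NTC and 74.6 in shGldc.

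Of the erasers, Tet1, which oxidizes methylcytosine, was called lower in shGldc (6.86 in NTC and 2.96 in shGldc, log2 ratio -1.19, and -1.35 over untreated V6.5 cells). Tdg, which excises oxidized methylcytosine, was called higher (12.7 and 27.8, log2 ratio 1.12), but untreated V6.5 cells had 23.6, and the ratio over them was 0.23. A share of 35.5% of the 50-nt stretches of Tdg occurs in other genes. In iPSCs over untreated V6.5 cells, Tet2 was called higher at 1.08, and over NTC it was at 0.26. None of the 15 PRC1.6 genes was called in iPSCs over untreated V6.5 cells or in shGldc over NTC, and neither was any of 14 genes of H3K9 methylation. Over all genes tested, 10.1% were called higher and 7.44% lower in the first comparison, and 8.97% and 7.68% in the second. Over NTC, E2f6 was called higher in iPSCs (1.33) and Tfdp1 lower (-1.10). Over untreated V6.5 cells, Cbx3 was called lower in shGldc (-1.20), and of the erasers Tet3 was called higher (1.18). E2f6 had an FPKM of 10.1 in untreated V6.5 cells, 18.1 in iPSCs, 7.13 in NTC, and 11.2 in shGldc. PRC1.6 ratios in shGldc over NTC ran from -0.80 (Tfdp1) to 0.65 (E2f6), and H3K9 methylation ratios from -0.33 (Trim28) to 0.83 (Suv39h1).

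**Figure D5:**
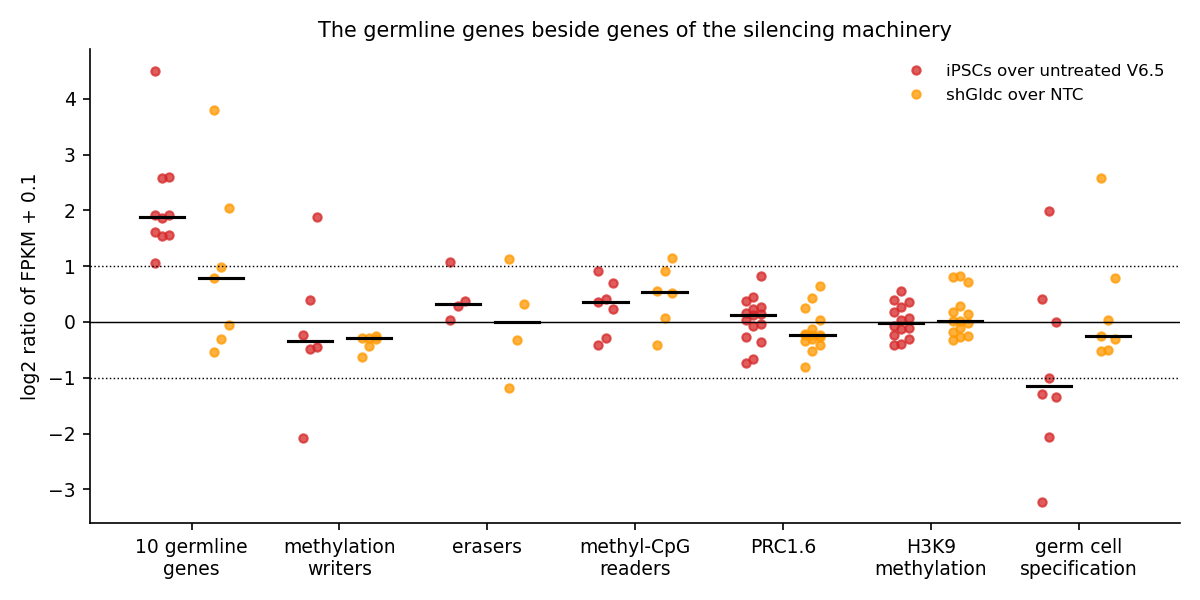
Log2 ratios of FPKM + 0.1 for genes that passed the filter, in iPSCs over untreated V6.5 cells and in shGldc over NTC, with genes grouped by list along the horizontal axis. Each point is a gene, short black lines are medians, and dotted lines mark 2-fold. The PRC1.6 and H3K9 methylation genes all lie within 2-fold, while the 10 germline genes have a median of 1.89 in iPSCs over untreated V6.5 cells.

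Factors that specify germ cells were read in the same libraries. Of the 8 that passed the filter, 5 were called lower in iPSCs than in untreated V6.5 cells, against 7.44% of the genes tested, and Sox17 higher, with a median log2 ratio of -1.15. Over NTC 2 were called lower and 2 higher, against 7.81% and 16.3%, with a median of 0.37, so the direction of the list depended on the control. Prdm14, which initiates the germ cell programme, had an FPKM of 16.1 in untreated V6.5 cells and 6.48 in iPSCs, and Nanos3, which keeps primordial germ cells alive, had 4.59 and 0.402. In shGldc over NTC, Nanos3 was the 1 of 7 that was called, higher at 53.2 compared with 8.84 (log2 ratio 2.58), where 8.97% of the genes tested were called higher. Dppa3, a germ cell and pluripotency gene, had an FPKM of 11.7 in NTC and 20.3 in shGldc, within 2-fold. Over untreated V6.5 cells, 3 of 7 were called lower in shGldc (Prdm14 at -1.06, Dppa3 at -1.58, and Ifitm3 at -2.10), against 13.9% of the genes tested, and Nanos3 higher at 3.51.

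Markers of the 2-cell-like state, which a small share of mESCs enters at any time, also differed in shGldc. Of 11 that passed the filter, 10 were called higher than in NTC, against 8.97% of the genes tested, but 9 of the 11 passed through shGldc alone. Over untreated V6.5 cells, 8 of 11 were called higher, against 9.89%, and 1 of the 11 passed through shGldc alone. The summed FPKM of the 13 in the tables was 38.4 in NTC, 104 in shGldc, and 63.6 in untreated V6.5 cells, and without Eif1a, which was also at 47.0 in MEFs, it was 5.89, 76.0, and 25.5. Zscan4b had an FPKM of 0.208 in NTC, 8.73 in shGldc, and 2.99 in untreated V6.5 cells, though 90.1% of its 50-nt stretches occur in other genes of its family. In iPSCs these markers were lower than in untreated V6.5 cells for 6 of the 10 that passed, against 7.44% of the genes tested, and higher for none. Over NTC the direction was the other way, with 4 of 7 called higher and none lower, against 16.3% and 7.81%, though 5 of the 7 passed through iPSCs alone. Of the markers of somatic cells of the gonad, 4 of 12 passed the filter in shGldc over NTC, and 2 were called higher and 2 lower, against 8.97% and 7.68%. Foxl2, of ovarian somatic cells, was higher (0.346 in NTC and 2.91 in shGldc), as was Star (1.11 and 2.36), while Cyp11a1 (3.27 and 0.298) and Dhh (1.10 and 0.404) were lower, so Star and Cyp11a1, both of steroid-making cells, went opposite ways. Over untreated V6.5 cells Star, at 0.95, was no longer called, and the other 3 were called the same way. The part of these markers in the values of Dazl and Taf7l was not tested.

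By the pattern over the 5 libraries, the genes most like the median of the 10 were Gjb1, Tesc, Rnf39, Zcwpw1, Gm14499, Fgfr4, Sec1, Ccdc64b, Proser2, and Hormad1. Likeness was the summed absolute difference of log2(FPKM + 0.1), each gene centred on its own mean over the 5 libraries, and it ran from 0.47 (Gjb1) to 1.63 (Hormad1). Zcwpw1 and Hormad1 are meiotic genes of the wider germline list, and Hormad1 had an FPKM of 0 in MEFs, 0.868 in untreated V6.5 cells, 3.44 in iPSCs, 0.795 in NTC, and 0.949 in shGldc. Of the 10 germline genes themselves, Ddx4 at 1.35 and Sycp1 at 1.90 lay nearest to their median and Tex19.1 at 8.30 and Taf7l at 6.36 farthest.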

How the data were processed

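Total RNA from 5 mouse libraries (1 per group) was sequenced on an Illumina instrument after NEBNext Ultra preparation. The authors used TopHat2 for alignment to mm10, StringTie for assembly, and Ballgown for expression. The submitters' processing notes give TopHat2 2.1.0, StringTie 1.3.4d, and SAMtools 1.7. The authors deposited FPKM values per gene symbol in 2 tables made separately. The gene annotation, strand setting, and filters are not given in the sources used here. FPKM corrects for length and depth but not for RNA composition.

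The 10 genes and all gene lists were chosen with earlier results of these data known. Ratios were taken as differences of log2(FPKM + 0.1), the pseudocount being 0.1, and a gene was kept if either library had an FPKM of 1 or more. A 2-fold difference was taken as a call, and with 1 library per group no test was possible. Depth was estimated from low FPKM values times transcript length over 5723 genes with a single transcript in GENCODE M21, as the step between 0.03 and 0.08 with the most values within 0.02 of 1 to 3 multiples. Fragments of a gene were estimated with its longest coding transcript. Intervals (95%) were exact Poisson for levels and Clopper-Pearson for ratios, and the floor was 3 fragments. Gene positions, overlaps, and shared 50-nt stretches are from GENCODE M21. The calls and the depth search were checked on simulated data.

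Named genes were the 10 genes, the 3 highest and 3 lowest shGldc over NTC ratios of each list, genes of the silencing machinery, Gldc, and the 10 genes most like the median pattern. Fkbp6, Rec8, Syce2, Tet2, Sox17, Nxf2, Tet3, Chpt1, and the germline genes named in the closing section alone were added after their values were seen. Alternatives were a pseudocount of 1 or 0.01, rescaling to the same FPKM sum, centring on the median, a filter of FPKM 5 or none, shGldc read against untreated V6.5 cells, a promoter window of 150 bases, and, chosen after seeing the data, NTC in place of untreated V6.5 cells, the other control for the further lists, and the 2-cell-like sum without Eif1a. Scripts ran under Python 3.11.15 with scipy 1.17.1, pandas 2.3.3, numpy 2.4.6, and for plots matplotlib 3.10.9. Single values of the methyl-CpG readers are not reported here.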

Additional observations from a re-analysis of the deposited data

How the results depend on the processing

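With 1 library per group, no spread between cultures could be measured. No paired analysis was possible because each group held 1 library. Rescaling to the same FPKM sum and centring on the median changed no count of the 10 genes by more than 1.5 times, and the single ratios moved by less than 0.59, the robust SD of NTC over untreated V6.5 cells. An FPKM of at least 5 left 2 genes called higher in V6.5 cells over MEFs, 6 in iPSCs over MEFs, and 6 in iPSCs over V6.5 cells, since fewer genes passed. It left 0 higher and 0 lower in NTC over V6.5 cells. In shGldc over NTC the median was then 1.52, taken over Dazl, Tex101, Taf7l, and Tex19.1 alone. Of these 4, only Tex19.1 reached that level in NTC, so the others passed through shGldc alone. Without a filter, the median over all 10 genes in shGldc over NTC was -0.052 and 1 gene, Asz1, was called lower. A pseudocount of 1 left 0 genes higher and 1 lower in NTC over V6.5 cells, and 2 called genes of the silencing and specification lists in shGldc over NTC in place of 4. Reading shGldc against untreated V6.5 cells gave 4 of the 10 genes higher and 4 lower, and 9 called genes in those lists. The median was then 0.12 over the 8 genes that passed and -0.46 over all 10. The cause of these changes was not tested. No called ratio of the 10 genes changed sign under these alternatives, but in the other lists a number did so with the other control. In shGldc these included Rhox9 (-0.09) and Magea4 (0.79). In iPSCs they included Rhox5 (-0.18), Xlr5a (-1.08), Dppa3 (0.30), Ifitm3 (0.45, from -1.34), and Zscan4b (1.90, from -1.43), and the genes named are not a full list. Depth limits Asz1, Sycp1, and Sycp3 in NTC and shGldc.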

Other observations

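Germline genes on the X chromosome other than Taf7l were read separately after their values were seen. Of 12 in the wider list, 7 of the 8 that passed the filter were called higher in iPSCs than in untreated V6.5 cells, with a median log2 ratio of 2.11, against 12 of 34 on autosomes with a median of 0.52 and 10.1% of all genes tested. Of the 8, Mageb4, Usp26, Xlr3a, and Xlr5a had an FPKM of 0 to 0.433 in untreated V6.5 cells. They passed through iPSCs alone, so their iPSC level let them into the count. On autosomes, Tdrd1, Tex15, Hormad1, Hormad2, Tex12, and Hsf5 passed in the same way. Over NTC, 5 of 10 were called higher and 3 lower on the X (median 0.83), and 14 of 33 higher and 1 lower on autosomes (median 0.81), against 16.3% and 7.81% of all genes tested. Tex11, Mageb4, Usp26, and Rhox9 passed that filter through iPSCs alone, and several autosomal genes also did. In NTC over untreated V6.5 cells, 5 of 8 were called higher and 3 lower, across separately made tables, against 4 and 7 of 29 on autosomes and 4.99% and 10.3% of all genes tested. Among those called higher, Magea4, Rhox2a, Xlr3a, and Xlr5a passed through NTC alone, with an FPKM of 0 to 0.309 in untreated V6.5 cells. Hormad2 did so on autosomes. Rhox5, a homeobox gene of the Rhox cluster, had an FPKM of 0.576 in MEFs, 56.1 in untreated V6.5 cells, 137.5 in iPSCs, 155.3 in NTC, and 322.5 in shGldc. Xlr3a had 0.110 in MEFs, 0.309 in untreated V6.5 cells, 11.9 in iPSCs, 10.2 in NTC, and 8.71 in shGldc. Xlr5a was listed at 0 in MEFs and in untreated V6.5 cells, and had 3.29 in iPSCs, 7.05 in NTC, and 5.65 in shGldc. Xlr3a and Xlr5a share 44.8% and 84.2% of their 50-nt stretches with other genes, so their single values are uncertain. Rhox9 had 11.7 in untreated V6.5 cells, 0.877 in NTC, and 11.1 in shGldc, and differed more between the control libraries than between untreated V6.5 cells and shGldc.

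On the autosomes, Fkbp6, which acts in the piRNA pathway, had an FPKM of 0 in MEFs, 7.28 in untreated V6.5 cells, 45.8 in iPSCs, 26.0 in NTC, and 47.2 in shGldc. Rec8, the meiotic cohesin subunit, had 27.1 in untreated V6.5 cells, 21.3 in iPSCs, 15.4 in NTC, and 56.6 in shGldc. Stra8 had 52.5 in untreated V6.5 cells, 155.5 in iPSCs, 22.6 in NTC, and 224.1 in shGldc.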
